A study of Mus musculus with 15 samples.

Results

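Sprouty and Spred genes encode feedback inhibitors of receptor tyrosine kinase signalling, and 6 of them, Spry1, Spry2, Spry4, Spred1, Spred2 and Spred3, were followed here in mouse embryonic stem cells grown in 5 media. They were taken by symbol from 49585 genes in the count table, a choice made with earlier results of these data known. All 6 had counts high enough to be tested. The cells were wild-type E14, an established mouse embryonic stem cell line. Before the experiment they grew on gelatin with Lif at 4 ng/ml, the GSK3 inhibitor CHIR99021 at 3 µM and the MEK inhibitor PD0325901 at 0.4 µM, a mixture named 2i/Lif. For all groups, 2000 cells per µl were set in Matrigel of reduced growth factor content and covered with N2B27 medium. To that medium was added PD032+ Aurka inh (called the combination here), PD032, Aurka inh (an inhibitor of Aurora kinase A), FGF2/Activin, or 2iLif. Each group had 3 libraries of poly(A)-selected RNA. What PD032 stands for, which Aurora compound was used, and the doses and times in Matrigel are not in the labels, which also write FGF2/Activin as FAK. No group had N2B27 alone, so the effect of either inhibitor on untreated cells was not measured. The title of the series asks how mitotic kinases regulate ERK signalling, and several Sprouty genes are commonly used as a readout of that pathway.

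In this pathway a growth factor such as FGF activates its receptor, adaptors pass the signal to Ras, and Ras starts the chain from Raf through MEK to ERK. ERK signalling raises the transcription of several Sprouty genes, whose proteins then act between the receptor and Raf, and this closes a negative feedback loop. Spred proteins share the cysteine-rich Sprouty domain, and bring neurofibromin, which switches Ras off, to the membrane. In mouse embryonic stem cells FGF and ERK signalling drives the exit from naive pluripotency, and inhibitors of MEK are used to hold it.

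The 250 bases before the RefSeq start (GRCm38.p6) are shown for 3 of the 5 members with an entry. Spry1 and Spred3 are shown because their levels moved most alike over the libraries, and Spry2 because it moved the other way in FGF2/Activin against 2iLif. Capitals mark GGAA on either strand, the short core bound by ETS factors, through which ERK acts on transcription.
Spry1, chr3:37639697-37639946, plus strand: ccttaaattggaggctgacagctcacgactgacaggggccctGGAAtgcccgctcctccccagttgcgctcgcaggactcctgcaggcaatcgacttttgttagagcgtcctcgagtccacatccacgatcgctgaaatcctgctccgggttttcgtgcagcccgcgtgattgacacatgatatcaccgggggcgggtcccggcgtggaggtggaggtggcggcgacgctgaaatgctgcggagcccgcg
Spred3, chr7:29168648-29168897, minus strand: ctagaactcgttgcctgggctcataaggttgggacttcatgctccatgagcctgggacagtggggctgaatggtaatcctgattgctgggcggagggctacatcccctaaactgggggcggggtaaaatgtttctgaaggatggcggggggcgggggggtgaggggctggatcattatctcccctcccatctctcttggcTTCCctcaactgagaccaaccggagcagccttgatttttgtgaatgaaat
Spry2, chr14:105896820-105897069, minus strand: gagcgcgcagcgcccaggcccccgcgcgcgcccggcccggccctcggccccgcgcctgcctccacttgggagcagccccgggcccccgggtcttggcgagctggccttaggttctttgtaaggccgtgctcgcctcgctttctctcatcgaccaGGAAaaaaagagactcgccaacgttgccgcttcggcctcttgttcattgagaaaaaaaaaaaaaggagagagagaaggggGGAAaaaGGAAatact

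Spry1 and Spred3 each hold 1 such match and Spry2 holds 3, while 93.4% of 32851 RefSeq windows of this length hold at least 1. Of the members not shown, Spred1 holds 4 and Spred2 holds 7, and Spry4 has no entry. The longer core CCGGAA, found in 12% of those windows on either strand, and the AP-1 motif TGANTCA, found in 6.75%, are in none of the 5 members' windows (GGAA also lies within CCGGAA). The Spred3 window lies inside the GENCODE gene but in no annotated exon, and the Spry1 window lies wholly in exons of the antisense Gm42922. In the Spred2 window, 67 bases lie in annotated exon of Spred2 itself and hold some of its matches. These are matches of letters, and binding was not measured.

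All 6 are protein-coding genes, placed here on mm10 by GENCODE M21. Spry1 (ENSMUSG00000037211) lies on chromosome 3 from 37639947 to 37644598, Spry2 (ENSMUSG00000022114) on chromosome 14 from 105891947 to 105896819, and Spry4 (ENSMUSG00000024427) on chromosome 18 from 38586247 to 38601415. Spred1 (ENSMUSG00000027351) lies on chromosome 2 from 117121374 to 117182279, Spred2 (ENSMUSG00000045671) on chromosome 11 from 19924375 to 20024026, and Spred3 (ENSMUSG00000037239) on chromosome 7 from 29158829 to 29170411. An antisense gene shares exon sequence with Spry1 (Gm42922, 28 counts over all 15 libraries) and another with Spred3 (Ggn, 52 counts). The strand setting of the counting is not given in the sources used here, so reads of these pairs may not have been told apart.

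Total counts per library ran from 15199507 to 24202544, and 15223 of the genes were tested. Levels are CPM, counts scaled to a common total, with TMM-scaled totals, and fold changes and adjusted p-values come from edgeR. A gene passed at an adjusted p under 0.05 over all genes tested, and "against" puts the first group over the second. Nothing in the labels says that replicates were separate cultures, so the p-values speak only of the spread between libraries, which may be technical. In bulk RNA, fewer cells that express a gene and less RNA per cell cannot be told apart. The labels name the files of the 3 inhibitor groups in a different style from those of FGF2/Activin and 2iLif, and no group crosses the styles. Differences across the styles and a batch difference therefore cannot be told apart, while 4 comparisons stay within a style. The pairs of replicates that include replicate 2 of an inhibitor group stood further apart (chi-squared per degree of freedom 9.81 to 19.2) than the other pairs of those groups (2.59 to 6.74). In FGF2/Activin the value was 1.24 to 1.57, and in 2iLif 1.34, or 6.14 and 6.95 with replicate 3. All comparisons with an inhibitor group were therefore also fitted without its replicate 2, a choice made after seeing the data.

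The 5 stem cell markers summed to between 1976 and 2369 CPM in every library, while single markers differed between groups. Sox2 averaged 172 CPM in FGF2/Activin and 502 CPM in 2iLif, and Utf1 576 CPM in FGF2/Activin and 154 CPM in 2iLif. Pou5f1 was lowest in PD032, at 449 CPM.

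Markers of other cell types also moved with the media. The 5 fibroblast markers summed to between 4.12 and 6.45 CPM in the combination, 9.71 and 12.4 in PD032, 12.4 and 19.5 in Aurka inh, 18.96 and 20.56 in FGF2/Activin, and 2.47 and 3.04 in 2iLif, most of it Thy1. Dcn was at 0 in the combination and in 2iLif, and averaged 4.55 CPM in FGF2/Activin. The fibroblast sums were thus highest in FGF2/Activin and Aurka inh, as were Spry1 and Spred3. By mean, Spred2 was also highest in these media, though Aurka inh and 2iLif overlapped, and Spry2, Spry4 and Spred1 were not. Among the other media the orders of the means differed. The sum was lowest in 2iLif, while the means of Spry1 and Spred3 were lowest in the combination. For Spry1 the combination and 2iLif overlapped and did not pass (edgeR adjusted p = 0.12). Spred3 was lower in PD032 than in 2iLif (edgeR adjusted p = 0.037), a call lost in 8 of 13 alternatives. Thy1 alone was higher in Aurka inh (15.3 CPM) than in FGF2/Activin (12.5 CPM). The 5 trophoblast markers summed to between 33.3 and 55.1 CPM in the combination, 17.7 and 22.5 in PD032, 11.48 and 17.04 in Aurka inh, 6.68 and 8.43 in FGF2/Activin, and 55.6 and 57.3 in 2iLif. Outside FGF2/Activin most of the sum was Tfap2c, at 53.67 CPM in 2iLif, 46.11 in the combination, 16.99 in PD032 and 11.39 in Aurka inh. Krt7 had another order, and was highest in FGF2/Activin (5.403 CPM), where it led the list, and lowest in the combination (0.5249 CPM). Cdx2, Elf5 and Gata3 averaged at most 1.062 CPM in any group. The 5 primitive endoderm markers summed to at most 6.62 CPM in any library, and were highest in 2iLif. The part of these markers in the results was not tested.

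Compared per length of exon, Spry2, Spred1 and Spred2 made up most of the family's RNA in every medium. In RPKM, which is CPM per kilobase of exon, the 6 genes summed to 60.5 ± 3.91 in the combination, 41.7 ± 1.118 in PD032, 83.1 ± 3.85 in Aurka inh, 85.2 ± 0.649 in FGF2/Activin and 93.7 ± 1.58 in 2iLif (SD, n = 3 each). The sum was thus lowest in the PD032 libraries. Spry2 held 54.2% of the sum in 2iLif, and between 26.3% and 41.8% in the other media. Spry1 and Spry4 together with Spry2 gave the Sprouty genes 55.8 ± 0.738% of the sum in FGF2/Activin and 67.4 ± 0.906% in 2iLif. In the combination the Sprouty share was 46.7 ± 1.01%, in PD032 46.5 ± 0.142% and in Aurka inh 49.1 ± 3.24%.

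**Figure D1:**
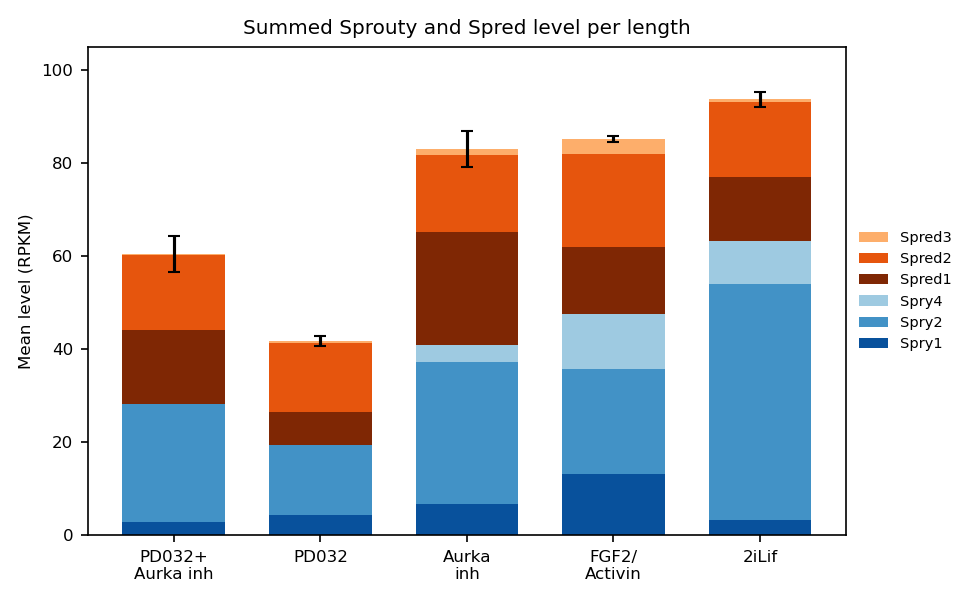
Mean level per length (RPKM, y axis) of each Sprouty (blue) and Spred (orange) gene, stacked for the 5 culture groups, with error bars showing the SD of the sum over 3 libraries. The sum is lowest in PD032, at 41.7 RPKM, and Spry4 and Spred3 are barely visible or not visible in PD032 and the combination.

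The members differed widely in how far they moved. The ratio of the highest to the lowest group mean was 380 for Spry4, 12.7 for Spred3, 4.69 for Spry1, 3.47 for Spred1, 3.397 for Spry2 and 1.35 for Spred2. On log2 CPM with a prior count of 2, the range over the 5 group means was 7.89 for Spry4, larger than in 99.9% of the genes tested, and 0.43 for Spred2, larger than in 23.6%. Over all genes tested the median range was 0.83. The ratio for Spry4 rests on the 9 counts of the PD032 libraries, with a ratio of counts per total from 212 to 882 (95% exact interval, counting error only). The ratio of means was 365 without PD032 replicate 1, 631 without replicate 2 and 280 without replicate 3.

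**Figure D2:**
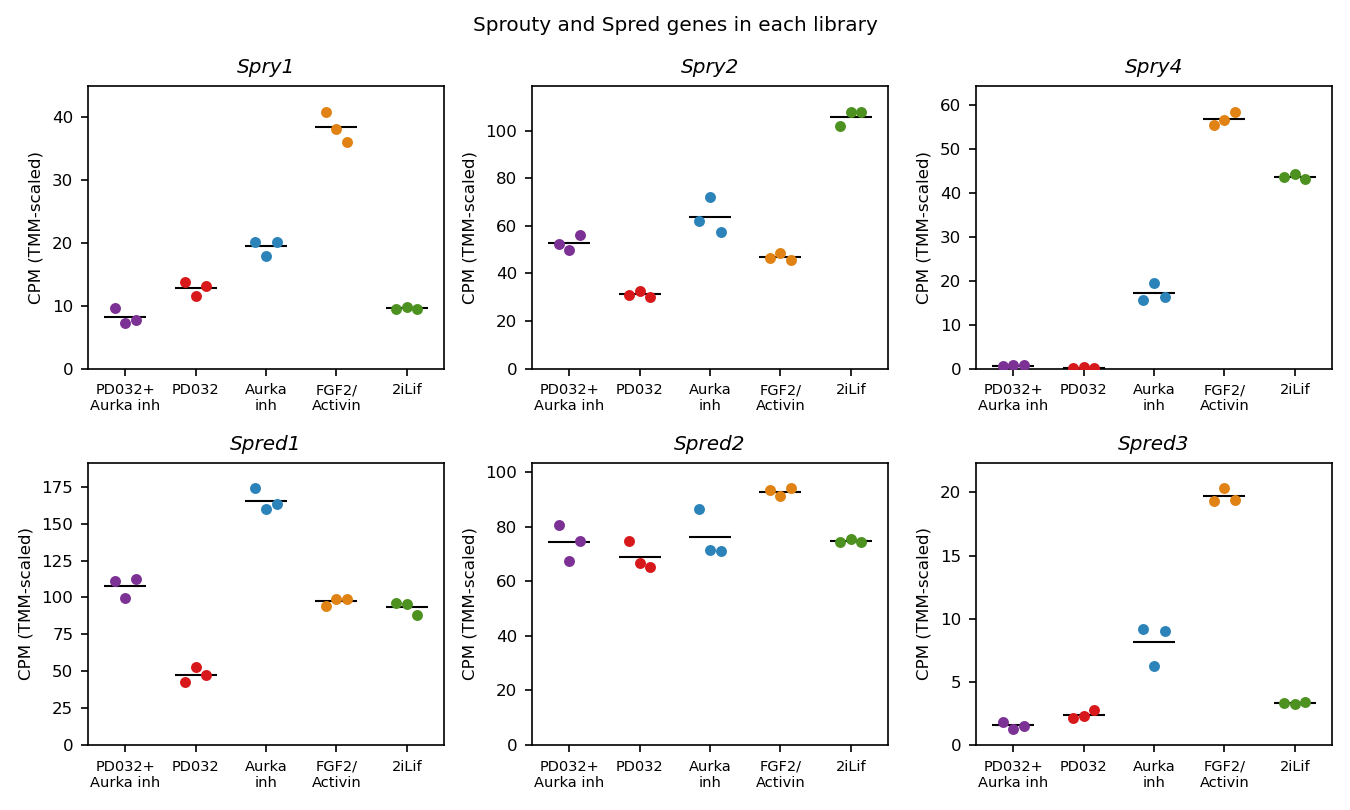
Level of each gene (CPM over TMM-scaled totals, y axes from 0) in each of 15 libraries, grouped by medium, with a line at the group mean. Spry4 lies under 1 CPM in all 6 libraries of the PD032 and combination groups, Spry1 and Spred3 are highest in FGF2/Activin, Spry2 is highest in 2iLif and Spred1 in Aurka inh.

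Spry4, a Sprouty that restrains Ras activation below the receptor, had the widest span. In the combination its 3 libraries held 0.460, 0.731 and 0.749 CPM, in PD032 0.137, 0.268 and 0.0428, and in Aurka inh 15.7, 19.4 and 16.2. FGF2/Activin had 55.3, 56.5 and 58.4 CPM, and 2iLif 43.5, 44.2 and 43.0. No groups overlapped, and the order ran from FGF2/Activin through 2iLif, Aurka inh and the combination to PD032, with each neighbour differing from the next (edgeR adjusted p from 1.6e-11 to 0.0018). The lowest levels rest on few reads, 42 counts over the combination libraries and 9 over the PD032 libraries, against 965 over the Aurka inh libraries.

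With PD032 added to Aurka inh, Spry4 fell by 4.70 on the log2 scale (SE 0.16, edgeR adjusted p = 1.6e-11). As a ratio of counts per total, it was 26.1-fold lower in the combination than in Aurka inh (95% exact interval 19.2 to 36.5, counting error only). In PD032 it was 120-fold lower than in Aurka inh, with an interval from 62.9 to 263 (adjusted p = 1.1e-12 in edgeR). With the Aurora inhibitor added to PD032, Spry4 rose by 2.14 on the log2 scale (SE 0.42, edgeR adjusted p = 0.00046), a count ratio of 4.59 (interval 2.20 to 10.7). Even so, the combination stayed 67.4-fold below 2iLif (interval 49.6 to 93.8), across the naming styles. Fitted Spry4 values that involve PD032 depend on PD032 replicate 2, which held 5 of the 9 counts. Without it the fold change against Aurka inh was -7.48 in place of -6.85, and that of the combination against PD032 was 2.78. Those of PD032 against 2iLif and FGF2/Activin were then -8.84 and -9.22 in place of -8.20 and -8.58. Leaving out other replicates also gave smaller changes for PD032, down to -6.38 against Aurka inh, -7.74 against 2iLif and -8.12 against FGF2/Activin. That of the combination against PD032 went down to 1.68.

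Spry1 is a Sprouty with a role in kidney development, where it limits signalling by the receptor Ret. It had 9.61, 7.20 and 7.74 CPM in the combination, 13.8, 11.5 and 13.1 in PD032, and 20.2, 17.98 and 20.2 in Aurka inh. FGF2/Activin libraries held 40.9, 38.2 and 36.1 CPM, and 2iLif libraries 9.48, 9.80 and 9.43. FGF2/Activin was highest, followed by Aurka inh, PD032, 2iLif and the combination, and only the combination and 2iLif overlapped and did not pass (edgeR adjusted p = 0.12, and 0.015 without replicate 1 of the combination). Spry1 rose in FGF2/Activin against 2iLif by 2.00 on the log2 scale (SE 0.10, edgeR adjusted p = 7.0e-11). It fell by 1.25 on the log2 scale in the combination against Aurka inh and by 0.65 in the combination against PD032. Unlike Spry4, Spry1 was thus lower, not higher, when the Aurora inhibitor was added to PD032.

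Spry2, which binds the ubiquitin ligase Cbl and blocks signalling towards Ras, was the most abundant Sprouty per length in all 5 media. Its libraries held 52.5, 49.7 and 56.0 CPM in the combination, 31.1, 32.6 and 29.9 in PD032, and 62.0, 71.9 and 57.3 in Aurka inh. FGF2/Activin had 46.4, 48.6 and 45.5 CPM and 2iLif 102.0, 107.7 and 108.0. No 2 groups overlapped. Spry2 was highest in 2iLif and lowest in PD032, and only the neighbours combination and FGF2/Activin did not pass (log2 0.17, edgeR adjusted p = 0.051). That pair passed in 5 of 13 alternatives, at an adjusted p of 0.0020 without replicate 2 of all inhibitor groups, 0.038 with no filter on low counts, 0.021 with these groups alone, and 0.050 and 0.030 without replicates 1 and 2 of the combination. In FGF2/Activin against 2iLif Spry2 fell by 1.18 on the log2 scale (SE 0.07, edgeR adjusted p = 7.3e-10), where Spry1 and Spry4 rose. It rose by 0.76 in the combination against PD032 (SE 0.08, edgeR adjusted p = 5.9e-07). With PD032 added to Aurka inh it fell by 0.27 (edgeR adjusted p = 0.0088, 0.0502 with these groups alone, and 0.075 at a log2 of -0.14 without replicate 2 of all inhibitor groups), the smallest of the falls that passed in that comparison.

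Spred1 recruits neurofibromin to the membrane, and human loss-of-function mutations cause Legius syndrome. Levels were 111.3, 99.7 and 112.6 CPM in the combination, 42.6, 53.2 and 47.4 in PD032, 174.1, 159.8 and 163.1 in Aurka inh, 94.5, 98.8 and 98.9 in FGF2/Activin, and 96.4, 95.8 and 88.4 in 2iLif. Aurka inh was above, and PD032 below, all libraries of the other media. The combination, FGF2/Activin and 2iLif lay close together, and FGF2/Activin and 2iLif overlapped (edgeR adjusted p = 0.49). The combination did not pass against FGF2/Activin (log2 0.15, edgeR adjusted p = 0.080, 0.042 with no filter on low counts, 0.027 with these groups alone, 0.026 without replicate 2 of the combination, and 0.0016 without replicate 2 of all inhibitor groups). Against 2iLif it passed (log2 0.21, adjusted p in edgeR 0.026), but not without 2iLif replicate 3 (0.12) or without replicates 1 and 3 of the combination (0.080 and 0.10).

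Spred1 fell by 1.80 on the log2 scale in PD032 against Aurka inh (SE 0.07, edgeR adjusted p = 2.3e-11) and by 0.62 in the combination against Aurka inh (SE 0.07, edgeR adjusted p = 5.3e-06). It rose by 1.18 in the combination against PD032 (SE 0.07, edgeR adjusted p = 2.7e-09). The combination libraries therefore lay between those of the single inhibitors, for Spred1 as for Spry2 and Spry4.

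Spred2, a broadly expressed Spred, was the member that moved least. It had 80.7, 67.4 and 74.8 CPM in the combination, 74.7, 66.6 and 65.4 in PD032, 86.5, 71.5 and 71.1 in Aurka inh, 93.3, 91.3 and 94.1 in FGF2/Activin, and 74.3, 75.6 and 74.3 in 2iLif. All 3 FGF2/Activin libraries lay above the other 12, and the rest overlapped. It rose in FGF2/Activin against 2iLif by 0.31 on the log2 scale (SE 0.08, edgeR adjusted p = 0.0025), and was lower against FGF2/Activin in each inhibitor group. Among the other 4 media no pair passed, with edgeR adjusted p from 0.13 to 0.95. In the 3 inhibitor groups the highest Spred2 library was replicate 1 each time. With the replicate number in the fit, PD032 against Aurka inh passed at a log2 fold change of -0.16 (edgeR adjusted p = 0.0060, against 0.13 without it).

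Spred3 is the least abundant Spred per length, and in mice is known chiefly from brain. The combination held 1.79, 1.30 and 1.54 CPM, PD032 2.15, 2.31 and 2.78, Aurka inh 9.22, 6.22 and 8.99, FGF2/Activin 19.3, 20.3 and 19.4, and 2iLif 3.31, 3.24 and 3.38. No 2 groups overlapped, and the order was that of Spry1 except that PD032 and 2iLif changed places. In FGF2/Activin against 2iLif Spred3 rose by 2.57 on the log2 scale (SE 0.15, edgeR adjusted p = 2.9e-10), the largest rise among the members. It fell by 2.40 in the combination against Aurka inh (SE 0.17, edgeR adjusted p = 3.3e-08) and by 1.76 in PD032 against Aurka inh (SE 0.16, edgeR adjusted p = 1.7e-07). The fall of 0.64 in the combination against PD032 (edgeR adjusted p = 0.013) did not pass without PD032 replicate 3 (0.071) or without replicate 2 of the combination (0.052). That of 0.45 in PD032 against 2iLif (edgeR adjusted p = 0.037) missed the threshold in 8 of 13 alternatives, with adjusted p up to 0.12, among them each of those without a 2iLif replicate and without PD032 replicates 1 or 2.

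In the 3 comparisons among the inhibitor groups, Spry1, Spry2, Spry4, Spred1 and Spred3 passed and Spred2 did not, in directions that differed between the comparisons. These comparisons share libraries, so they are not independent of each other. With PD032 added to Aurka inh, 5 of 6 members fell (4 without replicate 2 of the inhibitor groups, Spry2 no longer passing), where 34.9% of all genes tested passed, 18.6% higher and 16.3% lower. In PD032 against Aurka inh the same 5 members fell, against 45.5% of all genes passing, 25.8% higher and 19.7% lower. With the Aurora inhibitor added to PD032, Spry2, Spry4 and Spred1 rose and Spry1 and Spred3 fell. Of all genes 43.7% passed in that comparison, 20% higher and 23.8% lower. In FGF2/Activin against 2iLif, Spry1, Spry4, Spred2 and Spred3 rose, Spry2 fell and Spred1 did not pass, where 65.9% of all genes passed, 33.3% higher and 32.6% lower. With so many genes passing, a count of 5 of 6 is not far from the background there.

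**Figure D3:**
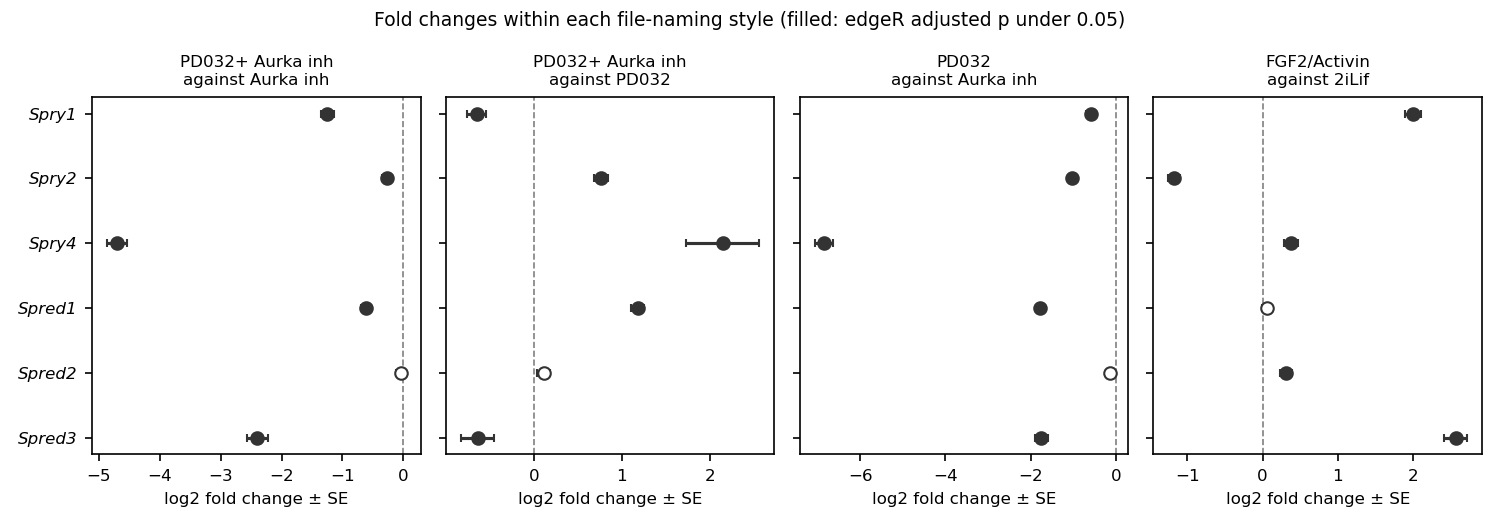
Log2 fold change with its SE (x axes, which differ between panels) of each gene in the 4 comparisons within a naming style. Filled points passed in edgeR, open points did not, and 5 of 6 genes passed in each panel.

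Across the naming styles, where a batch cannot be told apart from the medium, all 6 members were lower in PD032 than in FGF2/Activin, with log2 fold changes from -0.43 in Spred2 to -8.58 in Spry4 (59% of all genes passed, 30% higher and 29% lower). In the combination against FGF2/Activin, Spry1, Spry4, Spred2 and Spred3 fell and Spry2 and Spred1 did not pass (66.9% of all genes passed, 33% higher and 33.8% lower). In Aurka inh against FGF2/Activin, Spry2 and Spred1 rose by 0.44 and 0.77 and the other 4 fell (55.1% of all genes passed, 25% higher and 30.1% lower).

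Against 2iLif, whose name in the maintenance medium covers a MEK inhibitor, PD032 had 4 members lower and Spry1 higher, by 0.43 (63% of all genes passed, 32.1% higher and 30.9% lower). The combination had Spry2, Spry4 and Spred3 lower and Spred1 higher (47.6% of all genes passed, 23.8% higher and 23.8% lower). In Aurka inh, Spry1, Spred1 and Spred3 rose by 1.03, 0.83 and 1.31, while Spry2 and Spry4 fell by 0.73 and 1.36 (58.4% of all genes passed, 28.9% higher and 29.5% lower). Spry4 averaged 0.149 ± 0.113 CPM in PD032 and 43.6 ± 0.597 CPM in 2iLif (SD, n = 3 each).

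Other genes of the pathway were counted in 5 lists. Over all genes, 34.9% passed with PD032 added to Aurka inh, 18.6% higher and 16.3% lower. Of 11 other feedback inhibitors, 7 fell and 1 rose there, with a median log2 fold change of -0.58, against 0.0056 over all genes tested. Among them were 2 phosphatases of MAP kinases: Dusp4 averaged 7.58 ± 2.06 CPM in the combination and 69.7 ± 13.0 CPM in Aurka inh, and Dusp9 2.82 ± 0.585 and 13.6 ± 3.33 CPM (SD, n = 3 each). Of 11 measured transcriptional targets of ERK 5 fell and the other 6 did not pass, with a median of -0.70. The ETS factor Etv4 fell by 3.505 on the log2 scale and Myc, a growth-promoting transcription factor, by 1.29. In the combination against PD032, 6 of those 11 targets rose and 1 fell (median 0.32). The 11 other feedback inhibitors had 2 higher and 5 lower (median -0.29), where 43.7% of all genes passed, 20% higher and 23.8% lower. Etv4 rose by 1.47 there, as Spry4 did. Dusp9 fell by 1.75, and Dusp6, an ERK phosphatase, did not pass (log2 -0.03, edgeR adjusted p = 0.82). Against Aurka inh, Dusp6 was lower by 1.89 in the combination (edgeR adjusted p = 5.1e-10) and by 1.86 in PD032 (edgeR adjusted p = 1.3e-10). The other feedback inhibitors as a list were mixed in PD032 against Aurka inh, with 3 of 11 higher and 5 lower (median -0.26). Of the 11 ERK targets 6 were lower there and 5 did not pass (median -0.39). Over all genes 45.5% passed in that comparison, 25.8% higher and 19.7% lower.

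The 3 lists of upstream components and binding partners had medians near 0 in the first of these comparisons. With PD032 added to Aurka inh, 2 of 12 receptors and adaptors rose and 10 did not pass, where 34.9% of all genes passed. Fgfr2, an FGF receptor, rose by 0.51 and the adaptor Grb2 by 0.36. Among 11 genes for Ras, Raf, MEK and ERK, 2 rose and 2 fell, among them Mapk3, which encodes an ERK, by 0.30 on the log2 scale. Of 11 measured binding partners of the Sprouty and Spred proteins 2 rose, the kinase genes Mknk1 by 0.45 and Dyrk1a by 0.17. Medians of these lists lay between -0.02 and 0.03 there. In the combination against PD032, receptors and adaptors had 6 of 12 lower and 1 higher (median -0.305), where 43.7% of all genes passed. In PD032 against Aurka inh they had 7 higher and 1 lower (median 0.293), where 45.5% passed. Fgfr2 averaged 135.8 CPM in PD032, 36.8 in the combination and 25.91 in Aurka inh. In the same order of comparisons, medians were 0.0112 and 0.01503 for Ras to ERK, and -0.03695 and 0.2075 for binding partners. In FGF2/Activin against 2iLif the feedback inhibitors had 8 of 11 higher and 2 lower (median 1.16), and the ERK targets 7 of 11 higher and 4 that did not pass (median 0.88). Receptors and adaptors had 8 of 12 higher and 2 lower, Ras to ERK 4 and 3 of 11, and binding partners 6 and 4 of 11. Over all genes 65.9% passed there, 33.3% higher and 32.6% lower, so that the 7 of 11 for Ras to ERK is a share like the background.

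**Figure D4:**
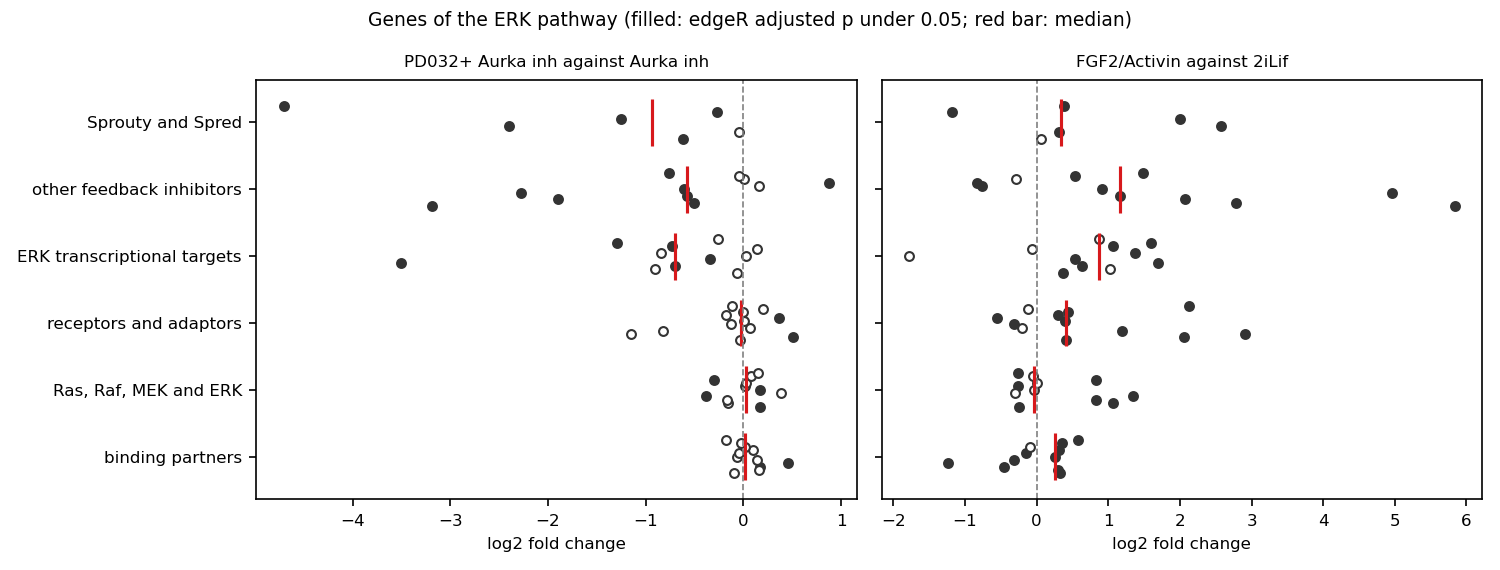
Log2 fold changes (x axes) of the Sprouty and Spred genes and of 5 lists of pathway genes in the combination against Aurka inh (left) and FGF2/Activin against 2iLif (right). Filled points passed in edgeR, open points did not, and the red bar is the median of a list; on the left the medians of the 3 lower lists lie near 0, and those of the other feedback inhibitors and the ERK targets at -0.58 and -0.70.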

How the data were processed

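RNA of 15 libraries was sequenced. The authors deposited raw counts per Ensembl gene and a second table of normalized log2 values. The submitters' processing notes name STAR, DESeq2 and the build mm10. How reads were counted, on which annotation and with what strand setting is not stated in the labels. Of 49585 genes, 49326 matched a symbol in GENCODE M21. The comparisons were fitted to the counts with edgeR 4.0.16 (R 4.3.3): filterByExpr kept 15223 genes, totals were scaled by TMM, and all 5 groups entered a single quasi-likelihood model with 10 comparisons. P-values were adjusted by Benjamini-Hochberg over all genes of a comparison. The SE is the fold change over the root of the F statistic. RPKM is CPM per kilobase of the union of exons. DESeq2 1.42.0 and limma 3.58.1 served in alternatives, limma on the authors' deposited log2 values, whose value at 0 counts was 5.566. Fits were tested on simulated data. Alternatives were DESeq2's size factors and Wald test, library size alone, no filter on low counts, a fit of the compared groups alone, a replicate block, each replicate left out in turn, and replicate 2 left out of all inhibitor groups.

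The members, pathway lists, naming rule and tests were chosen with earlier results of these data known. All 6 members are named. Of each list, up to 2 genes with the largest change among those that passed in the combination against Aurka inh are named, plus Dusp6 and Etv4. A gene that this rule selects is not reported here. The lists held 12 receptors and adaptors, 11 genes from Ras to ERK, 12 binding partners (Cav1 was too low to test), 11 feedback inhibitors and 12 ERK targets (Egr2 was too low to test). Spry3 was not analysed here.

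Libraries with the same replicate number deviated together among the inhibitor groups (r from 0.17 to 0.483 across genes, which are not independent replicates), so the numbers may pair libraries there, which rests on the data and not on the labels. The values reported come from the fit without the replicate number, and a fit with it as a block is an alternative. Between all other groups r lay between -0.0448 and 0.0654. All replicate pairs differed by more than sampling noise (chi-squared per degree of freedom from 1.24 to 19.2), most where replicate 2 of an inhibitor group was in the pair.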

Additional observations from a re-analysis of the deposited data

How the results depend on the processing

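Of 60 member results (6 genes in 10 comparisons), 48 kept their direction and their side of the threshold in every alternative that gave a value, and the exceptions among called results are given with them above. The 10 counts of members that passed stayed within 1.5 times their value. Of the counts over all genes only the combination against Aurka inh moved further, with 3480 genes with these groups alone in the fit, against 5311. Values that changed sign were all near 0 and did not pass. Spred2 in the combination against 2iLif had 0.021 with library size alone, 0.0019 with no filter on low counts, 0.0027 with these groups alone, 0.057 without replicate 2 of all inhibitor groups, and -0.076 to 0.057 with each replicate left out. Leaving out each replicate gave -0.12 to 0.060 for Spred2 in the combination against Aurka inh, -0.068 to 0.082 for Spred2 in Aurka inh against 2iLif, and -0.011 to 0.080 for Spred1 in FGF2/Activin against 2iLif. The cause was not tested.

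With a replicate block the members' calls were as above except Spred2 in PD032 against Aurka inh (log2 -0.16), and 7181 genes passed in the combination against Aurka inh, 8533 in the combination against PD032, 8649 in PD032 against Aurka inh and 10790 in FGF2/Activin against 2iLif, where the numbers are not shown to pair libraries. Spry4 had too few counts to be tested with the combination and PD032 alone in the fit. The authors' log2 values compress low levels, and Spry4 in PD032 against 2iLif was -3.99 there. That alternative, the fit of the 9 inhibitor libraries and the fit without replicate 2 of the inhibitor groups were chosen after seeing the data. Other scalings moved the share of higher calls by at most 7.9 percentage points. Depth limits Spry4 with PD032, at 9 counts.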

Other observations

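Over the 15 libraries, which fall into 5 groups, the members' log2 CPM correlated with each other to very different degrees, given as a description. The closest pair was Spry1 and Spred3 (Pearson r = 0.953), followed by Spred2 and Spred3 (0.757) and Spry1 and Spred2 (0.738), while Spry1 and Spry2 had r = -0.262.

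Among protein-coding genes outside the family with a mean of at least 5 CPM, those most like each member over the 15 libraries were as follows. For Spry1 they were Tmem238 (r = 0.988), Galnt3, an enzyme that starts mucin-type O-glycans (0.985), and Tmem54 (0.983). Galnt3 averaged 1.65 CPM in the combination, 3.87 in PD032, 8.96 in Aurka inh, 43.9 in FGF2/Activin and 1.41 in 2iLif. For Spred3 the closest was Bok, a BCL2 family gene (0.974), with 3.22 CPM in the combination, 4.04 in PD032, 8.35 in Aurka inh, 15.7 in FGF2/Activin and 3.88 in 2iLif.

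For Spred1 the second closest gene was Nodal, the ligand of the Nodal and Activin receptor pathway (r = 0.967), after Pdk1 (0.969). Nodal averaged 99.8 CPM in the combination, 24.1 in PD032, 153 in Aurka inh, 59.1 in FGF2/Activin and 68.4 in 2iLif. For Spry2 the closest was Epop, a partner of Polycomb repressive complexes (0.982), for Spred2 it was the cyclin gene Ccnk (0.943), and for Spry4 it was Gtf2h3, which encodes a subunit of a general transcription factor (0.98). Gtf2h3 shared the order of Spry4 but little of its span, with 86.4 CPM in the combination, 80.0 in PD032, 101 in Aurka inh, 114.9 in FGF2/Activin and 109.7 in 2iLif.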
